A study of Mus musculus with 32 samples.

Results

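The genes described here are 9 genes of vesicle fusion at the nerve terminal, chosen by their symbols among the 18138 gene symbols of the array: Snap25, Vamp1, Vamp2, Stx1a, Nsf, Cplx1, Cplx2, Syn1 and Syn2. They were represented by 13 probes of 50 bases, all of which were taken, whatever their values. Expression was measured in frontal cortex (FCtx) of 32 female F1 mice from crosses of C57BL/6J and FVB/NJ, with 1 Illumina MouseRef-8 v2.0 array for each mouse. The ethanol-treated group (n = 20) could choose between water and 20% ethanol in a limited daily session in the dark over 20 days, and brains were taken 20 hours after the last session. The control group (n = 12) was matched, and what it was given to drink is not stated in the sources used here. No gene was altered in either group, the tissue was a dorsal piece of the most rostral cortex taken without the olfactory bulbs, and the study places the drinking in early adulthood without an age in weeks.

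A synaptic vesicle releases its transmitter when SNARE proteins of the vesicle and of the plasma membrane zip together into a tight bundle that draws both membranes into fusion. The vesicle contributes synaptobrevins, encoded by Vamp1 and Vamp2, and the plasma membrane contributes syntaxin 1A (Stx1a) and SNAP-25 (Snap25). The ATPase encoded by Nsf takes the spent bundle apart so that its parts can be used again. Complexins (Cplx1, Cplx2) bind the assembled bundle and tie fusion to the arrival of calcium. Synapsins (Syn1, Syn2) coat the vesicle and hold it in the reserve pool until they are phosphorylated.

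What each gene's value stands for depends on its probes, so the probes that decide the readout are shown first. Vamp1 had 4 probes. The table placed ILMN_2480543 at chr6:125172227-125172276 on the plus strand and named no genome build. ILMN_2480542, which had no coordinates in the table, shared 48 of its 50 bases with ILMN_2480543. The first 30 bases of both are given 5′ to 3′, with the bases that belong to the shared stretch in capitals.
Vamp1 ILMN_2480542: gaGAGGAAGGTGGTGTCCTATGTTGGCTCT
Vamp1 ILMN_2480543: GAGGAAGGTGGTGTCCTATGTTGGCTCTAG

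The probes of Vamp1 did not read alike. The pair that shares 48 bases was detected (detection p below 0.01) on all 32 arrays, with signals from 272 to 654 for ILMN_2480543 and from 239 to 552 for ILMN_2480542. ILMN_3137767 was detected on 3 arrays, with signals from 144 to 201. The 4th probe, ILMN_3060333, which the table types as isoform-specific and starts at base 776 of its transcript, was detected on 4 arrays. Vamp1 was therefore read by ILMN_2480543 and ILMN_2480542 alone, which are nearly the same sequence and count as 1 reading of the gene.

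Snap25 could not be compared between the groups. Its only probe, ILMN_2741123 (chr2:136473506-136473555, plus strand, starting at base 1703 of the transcript), was detected on 0 of 32 arrays. The median signal was 163 in ethanol-treated mice, from 134 to 185, and 145 in controls, from 128 to 177. The lowest detection p-value of any array was 0.0426 and the median 0.400, so no array read it above its negative control beads at the detection limit used. The level of the Snap25 transcript is not known from these arrays. The first 30 bases of the probe are shown for anyone who wants to place it.
Snap25 ILMN_2741123: ggtttgtcgaatgcttttgaaagctctgtt

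Syn1 had a pair of probes that were both bright and started 103 bases apart, at bases 2933 and 3036 of the transcript. The table placed ILMN_1235133 at chrX:20437761-20437810 and ILMN_2762083 at chrX:20437658-20437707, on the minus strand. Their first 30 bases are shown because, over all arrays with quantile normalization, the group differences of these readings of 1 gene had opposite signs. That of ILMN_2762083 did not pass the test. When arrays were scaled by a median instead, it was negative, like that of ILMN_1235133, as described with the synapsins.
Syn1 ILMN_1235133: catatgtggtcctcattcatgccgcctgtg
Syn1 ILMN_2762083: cacccctcagcggctctgaacccccaagag

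In all, 10 probes of 8 of the 9 genes passed the filter on dim signals, a detection p below 0.01 on at least 24 arrays, and were tested among 10187 probes. Values are given on the log2 scale of a variance-stabilized and quantile-normalized signal, and a difference is ethanol minus control unless another is named. A probe is said to rise or fall where limma's test passed a false discovery rate (FDR) of 1% over all tested probes, and a second count at an FDR of 10% is given beside it.

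The arrays lay on 4 chips of 8. Chips 1 and 2 were filled with ethanol-treated mice and chip 4 with controls. Chip 3 alternated, with 4 ethanol-treated mice at its odd positions (A to G) and 4 controls at its even ones (B to H). Treatment and chip cannot be told apart outside chip 3, and treatment and position cannot be told apart on it, so each gene is given over all arrays, on chip 3 alone, and for chips 1 and 2 against chip 4. Between 9480 and 11544 probes were detected per array. The control mouse C66, on chip 4, had the lowest median signal of any array (146) and the lowest signal of all 32 arrays for 11 of the 13 probes, such as 8054 for Cplx1 against 14569 on the next array. Results that rest on it are given without it too. The p-values measure the spread between mice with 1 array each, and RNA of whole tissue cannot tell fewer cells of a type from less RNA per cell.

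Over all 32 arrays, 1 of the 10 probes rose and 0 fell, against a background of 8.13% of all tested probes that passed an FDR of 1% (3.46% higher, 4.67% lower). At an FDR of 10%, 3 passed (2 higher, 1 lower) against a background of 25.1%. The median difference of the 10 probes was 0.06, and that of all tested probes was -0.0025. With 4 of 10 probes at an unadjusted p below 0.05 against 31.7% of all probes, the counts of these genes lay near those of the whole array. The split depended on the scaling, since 42.5% of the calls over all probes were higher as reported, 29.8% with each array scaled by the median of its tested probes, and 4.59% with the median of all its probes, which moved the median difference of the tested probes to -0.06. The median of all probes is a level of dim probes, since 39.6% of probes passed the filter. Before normalization, this array median centred on 184 in ethanol-treated mice and on 165 in controls. Values of the ethanol-treated and control mice overlapped for every one of the 13 probes, as they did for all but 0.00982% of tested probes. On chip 3 alone, where 15.2% of tested probes did not overlap, all 13 again did.

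**Figure D1:**
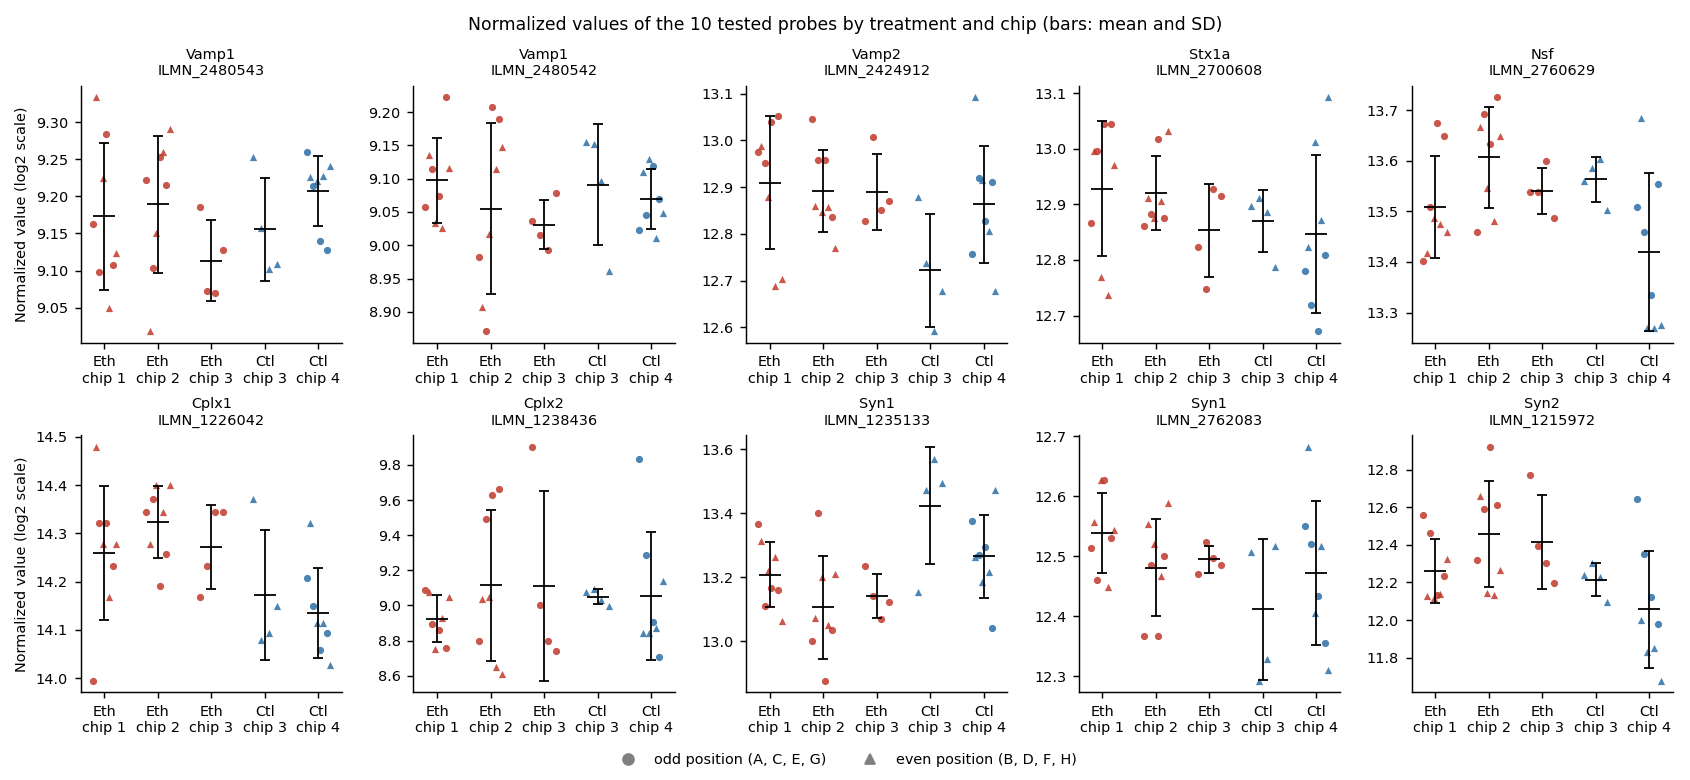
Normalized values (y axis, log2 scale) of the 10 tested probes, with 1 point per mouse, by treatment and chip (x axis; Eth, ethanol; Ctl, control). Circles are odd and triangles even positions, and bars give the mean and SD. The groups overlap in every panel, and Cplx2 has 5 mice at 9.49 or above while the other 27 lie at 9.29 or below.

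The vesicle SNAREs did not pass the test. For Vamp1, ILMN_2480543 ranged from 9.02 to 9.33 around a median of 9.16 in ethanol-treated mice and from 9.10 to 9.26 around 9.22 in controls. The difference was -0.02 (SE 0.030, adjusted p = 0.646 by limma), and that of ILMN_2480542 was -0.01 (SE 0.030, adjusted p = 0.863). The 95% confidence interval of ILMN_2480543, from -0.08 to 0.04, was the narrowest of the 10 probes. On chip 3 all 4 ethanol-treated mice lay below the control median of ILMN_2480542, with a difference of -0.06 (SE 0.050, adjusted p = 0.489 by limma).

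Vamp2, which encodes synaptobrevin 2, ranged from 12.69 to 13.05 around a median of 12.88 in ethanol-treated mice and from 12.59 to 13.09 around 12.82 in controls. The difference was 0.08 (SE 0.042, adjusted p = 0.173 by limma). Of the 20 ethanol-treated mice, 17 lay above the control median. On chip 3 the ethanol-treated mice A46, A47, A49 and A50 read 12.83, 13.01, 12.85 and 12.87, and the controls C52, C54, C55 and C56 read 12.88, 12.74, 12.59 and 12.68. A single control thus lay within the range of the ethanol-treated mice, and the other 3 lay below it. The difference there was 0.17 (SE 0.062, adjusted p = 0.109 by limma), against 0.04 (SE 0.044, adjusted p = 0.555) for chips 1 and 2 against chip 4. The test of chip 3 against the other chips gave 0.13 (SE 0.084, adjusted p = 0.327 by limma), which does not show that the differences were unequal.

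Stx1a, the plasma membrane syntaxin, ranged from 12.74 to 13.05 around a median of 12.91 in ethanol-treated mice and from 12.67 to 13.09 around 12.85 in controls. The difference was 0.05 (SE 0.037, adjusted p = 0.320 by limma) over all arrays and -0.02 (SE 0.051, adjusted p = 0.875) on chip 3. Among the remaining chips it was also taken for each kind of position. At odd positions the difference of chips 1 and 2 against chip 4 was 0.20 (SE 0.054), just short of an FDR of 1% by limma (adjusted p = 0.010) and past it when C66, itself at an even position, was left out of the fit (adjusted p = 0.00717). In the fit of all arrays, the difference at even positions was -0.05 (SE 0.054, adjusted p = 0.586 by limma). Without C66 it was -0.0025 (SE 0.057, adjusted p = 0.988 by limma). With all arrays, the difference between the odd and even values, 0.25 (SE 0.076, adjusted p = 0.597 by limma), did not pass the test, as for all tested probes (background 0%). Split by position in this way, 0 of 10 probes passed an FDR of 1% at odd or even positions (backgrounds 6.97% and 5.08%, with 1 and 3 probes at an unadjusted p below 0.05 by limma).

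Nsf ranged from 13.40 to 13.73 around a median of 13.54 in ethanol-treated mice and from 13.27 to 13.68 around 13.51 in controls. The groups overlapped over most of their range, while 4 of the 8 controls of chip 4 lay below every ethanol-treated mouse. Over all arrays the difference was 0.09 (SE 0.042, adjusted p = 0.145 by limma). It was 0.14 (SE 0.045, adjusted p = 0.0195 by limma) for chips 1 and 2 against chip 4 and -0.02 (SE 0.043, adjusted p = 0.791) on chip 3. The test between these sets of arrays gave -0.16 (SE 0.086, adjusted p = 0.220 by limma).

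Cplx1, the gene of complexin 1, was the probe that rose. Its normalized value ranged from 13.99 to 14.48 around a median of 14.30 in ethanol-treated mice and from 14.03 to 14.37 around 14.11 in controls. All but 1 ethanol-treated mouse lay above the control median. The exception, A3 on chip 1, was the lowest of all 32 mice, and the controls C63 and C52 lay among the higher ethanol-treated mice. The difference was 0.14 (SE 0.038, adjusted p = 0.00921 by limma), a 1.10-fold change. Before normalization, the median signal was 19893 in ethanol-treated mice and 16261 in controls.

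This call was close to the threshold and rested on the whole set of arrays. Without C66 the difference was 0.13 with an adjusted p of 0.0223 by limma, which is above an FDR of 1%. On chip 3 all 4 ethanol-treated mice lay above the control median, but the control C52, at 14.37, was the highest of the 8, and the difference of 0.10 did not pass (SE 0.067, adjusted p = 0.382 by limma). Chips 1 and 2 differed from chip 4 by 0.16 (SE 0.045, adjusted p = 0.00959 by limma), or by 0.14 without C66 (adjusted p = 0.0321). With arrays scaled by the median of the tested probes in place of quantile normalization, the difference was 0.06 (adjusted p = 0.320 by limma). With the median of all probes, which is a level of dim probes, the difference turned to -0.01 (adjusted p = 0.923 by limma).

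Cplx2, the second brain complexin, behaved unlike Cplx1. It ranged from 8.61 to 9.90 around a median of 8.96 in ethanol-treated mice and from 8.71 to 9.83 around 9.01 in controls, and the difference was -0.01 (SE 0.114, adjusted p = 0.951 by limma). The spread was carried by 5 mice, A46 at 9.90, C57 at 9.83, A34 at 9.66, A32 at 9.63 and A29 at 9.49. They came from both groups and from chips 2, 3 and 4, and all of them sat at odd positions. After removal of the 8 chip-by-position means, the SD of Cplx2 was 0.320, the 99.9th percentile of the tested probes, whose median was 0.0854. On chip 3 the difference was 0.06 with all 8 mice (SE 0.190, adjusted p = 0.882 by limma) and -0.20 without A46 (adjusted p = 0.0758), so 1 mouse set its sign.

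Syn2, the synapsin that was spread next most widely (SD 0.207, the 98.6th percentile), ranged from 12.12 to 12.92 around a median of 12.31 in ethanol-treated mice and from 11.68 to 12.64 around 12.11 in controls. All 20 ethanol-treated mice lay above the control median. The difference was 0.26 (SE 0.085, adjusted p = 0.0299 by limma), a 1.20-fold change that passed an FDR of 10% and not of 1%. For chips 1 and 2 against chip 4 it was 0.30 (SE 0.081) and passed 1%, with an adjusted p of 0.00559 by limma, or 0.0184 without C66. On chip 3 the ethanol-treated mice read 12.77, 12.40, 12.30 and 12.19 and the controls 12.24, 12.30, 12.23 and 12.09, which overlapped, with a difference of 0.20 (SE 0.099, adjusted p = 0.220 by limma).

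Syn2 was also the probe that moved with position where treatment did not vary. Within chips 1, 2 and 4, even positions ranged from 11.68 to 12.66 around a median of 12.13 and odd positions from 11.98 to 12.92 around 12.41. The difference of even minus odd was -0.31 (SE 0.076, adjusted p = 0.00805 by limma), or -0.29 without C66 (adjusted p = 0.0159), so the sign held and the call at 1% did not. It was the 1 probe of the 10 past an FDR of 1% in that comparison, against a background of 5.66%, and also the 1 past 10% (background 23%). Cplx2 had the next largest difference, -0.26 (SE 0.117, adjusted p = 0.134 by limma). Controls at even positions differed between chips 3 and 4 by 0.38 (SE 0.132, adjusted p = 0.0763 by limma), higher on chip 3, although they shared treatment and kind of position. Without C66 that difference was 0.32 (adjusted p = 0.192 by limma). With chip and kind of position both in the fit, Syn2 was -0.11 (adjusted p = 0.879 by limma). That fit takes the difference on chip 3 and removes the position difference of the other chips. It holds only if position acted alike on chip 3, where it cannot be told apart from treatment, so this was not tested.

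**Figure D2:**
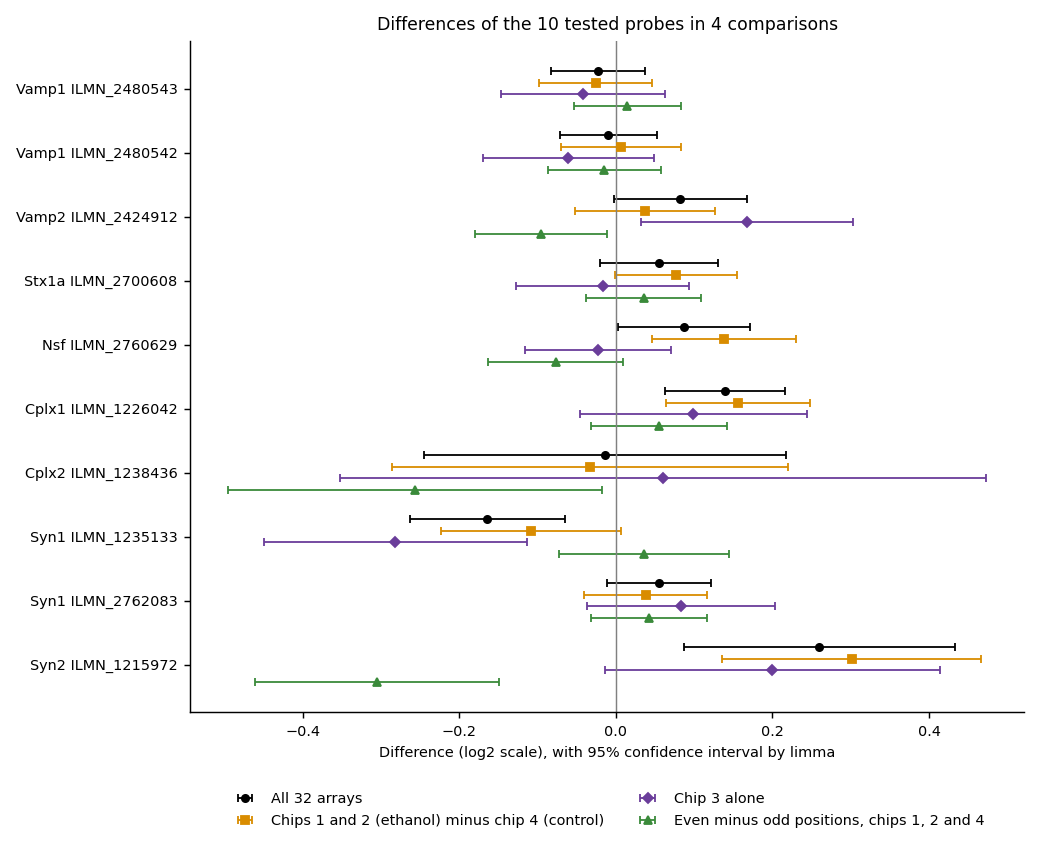
Differences on the log2 scale (x axis) of the 10 tested probes (y axis) with 95% confidence intervals by limma, for ethanol minus control over 32 arrays, chips 1 and 2 minus chip 4, chip 3 alone, and even minus odd positions within chips 1, 2 and 4. Syn2 lies at 0.26 for treatment over 32 arrays and at -0.31 for position, and the first Syn1 probe lies below 0 in each comparison of treatment. The Cplx1 difference of 0.14 over 32 arrays turned to -0.01 when arrays were scaled by the median of all probes, which is a level of dim probes.

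Syn1, the gene of synapsin I, gave different readings by its probes. ILMN_1235133 ranged from 12.88 to 13.40 around a median of 13.15 in ethanol-treated mice and from 13.04 to 13.57 around 13.28 in controls. The difference was -0.16 (SE 0.049, adjusted p = 0.0177 by limma), past an FDR of 10% and not of 1%. Of the 20 ethanol-treated mice, 3 lay above the control median. ILMN_2762083, 103 bases further on, ranged from 12.37 to 12.63 around 12.51 in ethanol-treated mice and from 12.29 to 12.68 around 12.47 in controls. Its difference was 0.06 (SE 0.033, adjusted p = 0.246 by limma), and 15 of 20 lay above the control median. The sign of ILMN_1235133 was negative in every alternative run over 32 arrays and on chip 3, whereas that of ILMN_2762083 over 32 arrays turned negative under either median scaling (-0.04 and -0.11). Under these scalings ILMN_1235133 passed 1% over 32 arrays, with differences of -0.25 and -0.32 (adjusted p = 0.000796 and 0.00757 by limma), and it was then the only one of the 10 probes to pass.

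The first probe was, on chip 3, the member that came nearest to passing. The ethanol-treated mice A46, A47, A49 and A50 read 13.23, 13.14, 13.07 and 13.12, and the controls C52, C54, C55 and C56 read 13.16, 13.47, 13.57 and 13.49. The control C52 lay among the ethanol-treated mice and the other 3 controls lay above all of them. The difference was -0.28 (SE 0.077, adjusted p = 0.0405 by limma), and leaving out 1 array at a time gave -0.37 to -0.23 with adjusted p from 0.00241 (without C52) to 0.114 (without C55). It was the 1 probe of 10 past an FDR of 10% on chip 3 (background 16.4%), where 0 passed 1% (background 2.34%) and 2 had an unadjusted p below 0.05 by limma. For chips 1 and 2 against chip 4 it was -0.11 (SE 0.056, adjusted p = 0.150 by limma).

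The gap between the Syn1 probes was also taken within each array, the first minus the second. In ethanol-treated mice it averaged 0.65 ± 0.12 (SD, n = 20), from 0.51 to 0.92. Controls averaged 0.87 ± 0.22 (SD, n = 12), from 0.58 to 1.24, so the groups overlapped. The controls above every ethanol-treated mouse were C54, C55 and C56 of chip 3 and C66 of chip 4, all at even positions. The remaining controls lay within the range of the ethanol-treated mice. The difference of the gap was -0.22 (two-sided permutation test over arrays with 100000 resamples, p = 0.00088, adjusted p = 0.00264 over 3 comparisons). Chip 3 alone gave -0.36 with an exact two-sided permutation p of 0.0571 (adjusted p = 0.0571), where 4 against 4 mice allow no p below 0.0286. On the other chips it was -0.15 (permutation p = 0.0242, adjusted p = 0.0363), or -0.09 without C66 (permutation p = 0.0953). This comparison was chosen after the values of the probes had been seen.

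The probes of Syn1 also did not move together from mouse to mouse. Over the 32 arrays, with the chip-by-position means removed, they correlated at 0.0050, given as a description of arrays that share chips and normalization. The Vamp1 pair that shares 48 bases correlated at 0.44 by the same measure. The gap between those Vamp1 probes averaged 0.10 ± 0.09 (SD, n = 20) after ethanol and 0.11 ± 0.08 (SD, n = 12) without it. A value for Syn1 thus depended on which probe was read.

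**Figure D3:**
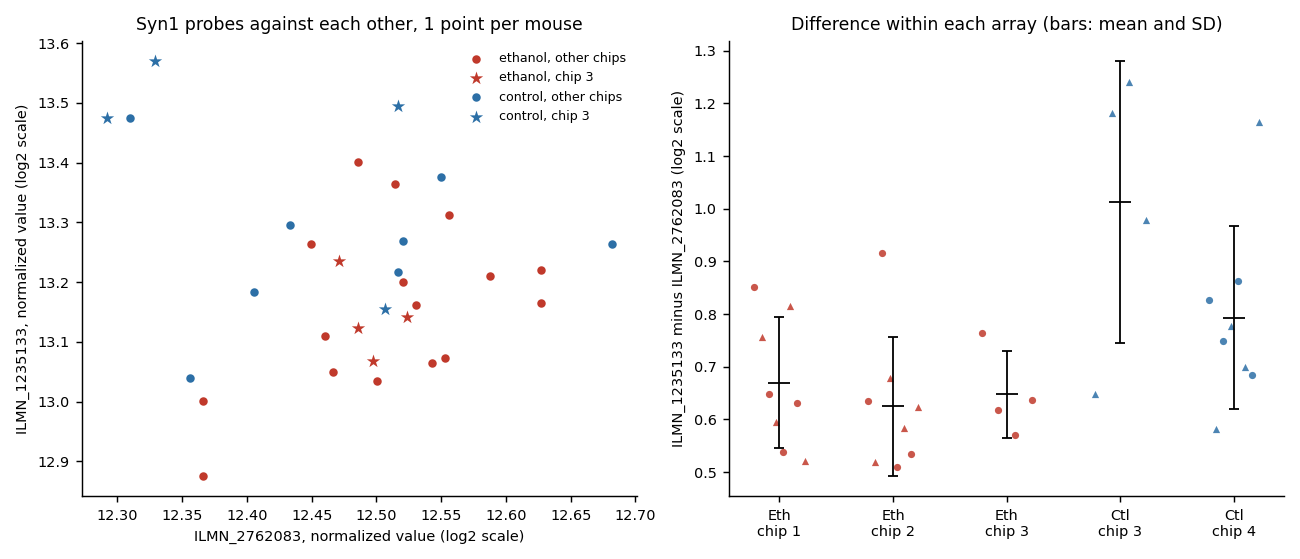
Left, normalized values (log2 scale) of the Syn1 probes ILMN_1235133 (y axis) and ILMN_2762083 (x axis), with 1 point per mouse and stars for chip 3. Right, their difference within each array (y axis, log2 scale) by treatment and chip, with mean and SD, circles for odd and triangles for even positions. The mean difference is 0.65 in ethanol-treated mice and 0.87 in controls. The 4 controls at 0.98 or more are C54, C55 and C56 of chip 3 and C66 of chip 4, all at even positions. No ethanol-treated mouse exceeds 0.92.

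Markers of cell types moved with some of these readings. The excitatory neuron list had 5 of 7 genes tested, by 6 probes, and 3 of the 6 fell over 32 arrays, against a background of 4.67% lower (median difference -0.14). At an FDR of 10% these 3 were lower and 1 was higher, against a background of 25.1%. On chip 3 alone 1 rose and 1 fell at 1% (background 2.34%). Its mean level ranged from 11.37 to 11.60 in ethanol-treated mice and from 11.49 to 11.76 in controls. The first Syn1 probe correlated with that level at 0.80 and the second at -0.05, while Vamp2 correlated with it at -0.61, over 32 arrays with the chip-by-position means removed. Against the level of the general neuron list, the first Syn1 probe correlated at -0.43, Vamp1 ILMN_2480542 at 0.61 and Vamp1 ILMN_2480543 at 0.40. Against that of the olfactory bulb list, Vamp1 ILMN_2480543 correlated at -0.54 and ILMN_2480542 at -0.46. The larger of these values are among the most extreme correlations of the 10 probes with all the marker lists. The part of these marker levels in the Syn1, Vamp1 and Vamp2 values was not tested.

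The other marker lists stood as follows. The interneuron list (7 probes of 6 genes) had 0 probes past 1% and 3 higher at 10% over 32 arrays (background past 10%, 25.1%). Its mean levels ran from 11.67 to 11.87 in ethanol-treated mice and from 11.59 to 11.85 in controls, and it correlated with the first Syn1 probe at -0.65. The astrocyte list (10 probes of 9 genes) had 1 higher at 1% (background 3.46%), with levels from 10.03 to 10.31 against 10.02 to 10.31, and it correlated with Syn2 at 0.57. General neuron, microglia, oligodendrocyte, striatum and olfactory bulb lists had 0 probes past an FDR of 1% over 32 arrays. In that order, 2 of 6, 1 of 11, 2 of 17, 0 of 5 and 0 of 7 passed 10%, against the background of 25.1%.

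On chip 3 alone, where the first Syn1 probe differed by -0.28, several marker levels were apart. The excitatory neuron level ranged from 11.49 to 11.55 in ethanol-treated mice and from 11.55 to 11.76 in controls, without overlap. Interneuron levels (11.79 to 11.83 against 11.59 to 11.68) and astrocyte levels (10.20 to 10.26 against 10.03 to 10.10) also did not overlap, and were higher after ethanol. Among all tested probes taken singly, 15.2% did not overlap on chip 3. No such share was taken for means of lists. For the olfactory bulb list, 5 of 7 probes (6 of 10 genes, with Omp, Eomes, Tbx21 and Dlx2 too dim) rose in the fit of chip 3 alone, against a background of 2.34%, with levels from 9.45 to 9.69 against 8.70 to 9.24. The same contrast in the fit of 8 chip-by-position groups called 0 of 7 at 1% and 1 at 10% by limma. Even positions of chips 1, 2 and 4 had 3 of 7 lower at 10% (median difference -0.31), against a background of 23%. Of 17 oligodendrocyte probes, 10 passed an FDR of 10% on chip 3 alone (1 higher, 9 lower), against a background of 16.4% in both directions. Their levels ran from 10.21 to 10.38 against 10.31 to 10.95. In the fit of 8 groups, 6 passed 10% (1 higher, 5 lower). No background is given here for the chip 3 contrast in that fit. The part of these markers in the values of the fusion genes was not tested.

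Set side by side, the parts of the design gave different lists. For chips 1 and 2 against chip 4, 2 of the 10 probes rose (Cplx1 and Syn2) and 0 fell, against a background of 17.7%. At an FDR of 10% there were 3, with Nsf, against 37.7%. Without C66 none of the 10 passed 1%, and Cplx1, Nsf, Stx1a and Syn2 passed 10%. No background over all tested probes is given here for the fits without C66, so these counts cannot be set against one. No probe differed between chip 3 and the other chips in its difference between treatments (0 of 10 past 1% or 10% by limma, 0 at an unadjusted p below 0.05, backgrounds 5.76% and 20.2%). The intervals of those differences were wide, such as -0.42 to 0.22 for Syn2, and they do not show that the differences were equal.

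Comparisons without a difference of treatment gave the size of differences between chips, each of which held other mice. Chip and mice cannot be told apart in them. Between chips 2 and 1, both of ethanol-treated mice, 0 of 10 passed an FDR of 1% (background 0.501%) or of 10% (background 5.84%), and 1 had an unadjusted p below 0.05 by limma, Syn2 at 0.19 (SE 0.094). Ethanol-treated mice at odd positions of chip 3 and of chips 1 and 2 differed for 0 of 10 at 1% or 10% (backgrounds 0% and 0.736%, 0 at an unadjusted p below 0.05 by limma). Controls at even positions of chips 3 and 4 differed for 0 of 10 at 1% (background 1.92%, 3 at an unadjusted p below 0.05 by limma) and for Syn2 at 10% (background 13.3%). The others of these 3 were Nsf at 0.19 and Vamp2 at -0.15. Without C66, Vamp2 (-0.22, adjusted p = 0.0704 by limma) passed 10% in place of Syn2.

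From mouse to mouse, the fusion genes did not vary as 1 block. Of the 45 pairs of probes, 28 correlated above 0 after removal of the chip-by-position means, with a median of 0.07 and a range from -0.43 to 0.76. The highest pair was Cplx2 and Syn2, at 0.76. A few mice carried the spread of Cplx2, and their part in this correlation was not tested. As all of these are values of the same 32 arrays after a shared normalization, they are descriptions.

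**Figure D4:**
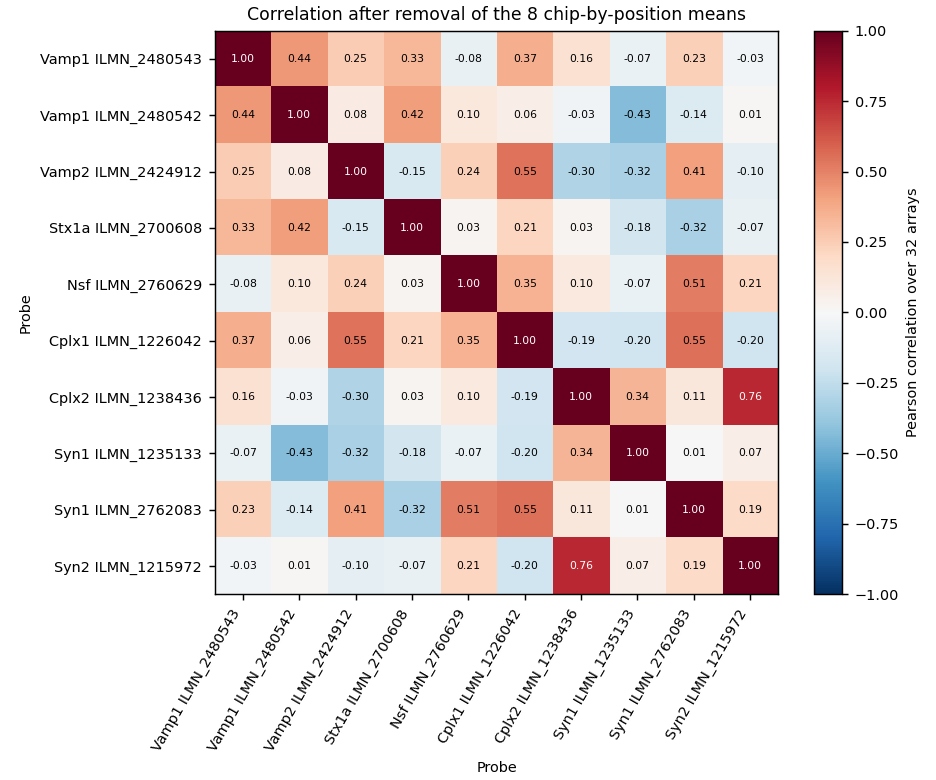
Pearson correlation over 32 arrays between the 10 tested probes (both axes), after removal of the 8 chip-by-position means, with red above and blue below 0. Cplx2, whose spread was carried by a few mice, and Syn2 are the highest pair, at 0.76. The pair of Vamp1 probes lies at 0.44 and the pair of Syn1 probes at 0.01.

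The genes outside the group whose pattern was most like that of each member were found by the same measure over 32 arrays. They were picked as the highest among all tested probes outside the group, so high values were selected for, and none was tested. Syn2 was nearest to Kif3a (0.89), Gnaq (0.87) and G3bp2 (0.86), and Cplx2 to Ddx24 (0.94), Prkacb (0.85) and Trim2 (0.84). The first Syn1 probe was nearest to Gripap1 (0.82), Pigt (0.79) and Garnl4 (0.78). The remaining members had weaker neighbours. Vamp2 was nearest to Abcb9 (0.77), Decr2 (0.74) and Gadd45a (0.73), and Cplx1 to LOC677144 (0.76), Lrrn1 (0.64) and Tmem125 (0.64). The nearest to Stx1a were Stk19 (0.70), Rai12 (0.66) and B230209C24Rik (0.65), those to Nsf were Pcyt1b (0.69), Trim32 (0.69) and Rit2 (0.66), and those to Vamp1 were Zfp46 (0.67), Hapln4 (0.66) and BC037034 (0.66).

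Other genes of release were taken from 3 lists of SNARE relatives, of priming and active zone proteins and of vesicle membrane proteins, of which 49 genes were tested by 71 probes. Over 32 arrays 4 probes rose and 2 fell, 8.45% of the 71 against the background of 8.13%. At an FDR of 10%, 23 passed (16 higher, 7 lower), 32.4% against a background of 25.1%. Their median difference was -0.00056. By list, 1 of 26 probes of SNARE relatives, 4 of 26 of priming and active zone proteins and 1 of 19 of vesicle membrane proteins passed 1%. With chip in the fit as a fixed or random block, 0 of the 71 passed 1% by limma, and so none of the 32-array calls named here. The share of all tested probes that passed in those fits is not given here. Chips 1, 2 and 4 each hold a single treatment, so a fixed block takes the difference from the 8 mice of chip 3 alone. The loss of a call under it does not show that the call was wrong.

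The probe that fell most was that of Rph3a, a binding partner of Rab3 on the vesicle. It ranged from 9.82 to 10.41 around a median of 10.07 in ethanol-treated mice and from 10.06 to 10.58 around 10.37 in controls, with a difference of -0.27 (SE 0.057, adjusted p = 0.00116 by limma). On chip 3 it gave -0.42 (SE 0.071, adjusted p = 0.00478 by limma). It was the 1 of the 71 release probes past 1% there (1.41%, against a background of 2.34%). It also differed by position within chips 1, 2 and 4, at 0.25 higher on even positions (SE 0.046, adjusted p = 0.000986 by limma). Leaving out any 1 of A46, A47, A49, C54, C55 and C56 left 0 of the 71 probes past 1% there. Stx8, an endosomal syntaxin, had 4 tested probes, of which 1, ILMN_2710544, fell over 32 arrays (difference -0.12, SE 0.027, adjusted p = 0.00232 by limma) and gave -0.15 on chip 3 (adjusted p = 0.0880). The other Stx8 probes differed by -0.07, -0.05 and -0.00056 over 32 arrays and did not pass (adjusted p = 0.242, 0.402 and 0.989 by limma).

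Among the probes that rose were those of Cadps, Scamp1 and Pclo. Cadps, a priming factor of dense-core vesicles, differed by 0.18 (SE 0.033, adjusted p = 0.00039 by limma), and Scamp1, a vesicle membrane protein, by 0.18 (SE 0.045, adjusted p = 0.00603 by limma). Scamp1 also differed by position within chips 1, 2 and 4, at -0.16 for even minus odd (adjusted p = 0.00455 by limma). Pclo, a scaffold of the active zone, differed by 0.15 over 32 arrays (SE 0.040, adjusted p = 0.00815 by limma) on ILMN_2665813, and its other probe by 0.11 (adjusted p = 0.0268). Chip 3 alone gave differences for the called probes of Cadps, Scamp1 and Pclo of 0.14, 0.09 and -0.07, and none of these passed an FDR of 10%. For Pclo the difference between chip 3 and the other chips was itself past the test (-0.31, SE 0.078, adjusted p = 0.0078 by limma). Without C66, 3 of the 71 probes passed 1% over 32 arrays in place of 6, and no background is given here for that fit.

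On chip 3 alone, 13 of the 71 probes passed an FDR of 10%, 1 higher and 12 lower, against a background of 16.4%. Within chips 1, 2 and 4, 11 of 71 probes differed between even and odd positions at an FDR of 1%, 8 of them among the 19 of vesicle membrane proteins, against the background of 5.66%. The part of position in the values of chip 3 cannot be told apart from that of treatment.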

How the data were processed

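FCtx RNA of 32 mice (20 ethanol-treated, 12 controls) was measured on Illumina MouseRef-8 v2.0 arrays. The authors deposited, not normalized, the mean bead intensity of each probe on each array on a linear scale. Beside each intensity, the deposited table gives its detection p-value, set against negative controls. The other deposited values are the bead-level standard error and how many beads were read. Background treatment before deposit is not given in the sources used here. The labels gave each array's treatment, mouse, chip and position.

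A variance-stabilizing transform was computed from bead standard errors and numbers, after the method the study names, followed by quantile normalization. Probes with a detection p below 0.01 on at least 24 arrays were tested with limma 3.58.1 in R 4.3.3 (tables read with the package data.table, version 1.17.8), without covariates, with Benjamini-Hochberg adjustment across 10187 of 25697 probes. Contrasts of chips and positions came from a fit of 8 chip-by-position groups. The Syn1 probe difference was compared by permutation over arrays. Figures were made in Python 3.11.15 with pandas 2.3.3 and matplotlib 3.10.9. The scripts were tested on simulated data. The number of arrays limits the precision.

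Named genes are all 9 members with all probes, release genes of the lists that passed an FDR of 1% over 32 arrays, and the 3 genes most like each member's brightest probe. The members and lists were chosen with earlier results of these data known. Alternatives covered the transform, background correction, scaling, filter, chip, position, array weights, the threshold and left-out arrays. Each probe's gene is the symbol in the deposited table, and its place in an exon or UTR was not worked out here. Some items of the lists are not reported here.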

Additional observations from a re-analysis of the deposited data

How the results depend on the processing

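No paired analysis was possible because ethanol-treated and control mice share no replicate numbers. Which probes the median scaling was taken over was settled after its values had been seen, so both forms are given. The added contrasts by position, the Syn1 gap and the settings added for chips 1 and 2 against chip 4, for positions and for the other release genes were also chosen after seeing the data.

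The 1 of 10 probes past an FDR of 1% over 32 arrays became 0 with all probes, with chip as a fixed block (alone or with position), with chip as a random block, with log2, normexp or neqc, and without C66, and 3 at an FDR of 10%. A fixed chip block takes the difference from chip 3 alone, and with position added it also removes the position difference of the other chips. On chip 3 the count of 0 became 1 at an FDR of 10% and ranged from 0 to 1 when 1 array was left out. For chips 1 and 2 against chip 4 the count of 2 became 1 with log2, normexp, neqc or median scaling, and 0 with all probes, with the median of all probes and without C66. For even against odd positions the count of 1 became 0 with all probes, normexp, neqc and without C66, and 2 with median scaling. Apart from those at an FDR of 10%, the counts under alternatives in this section are given without a background over all tested probes.

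The 6 other release probes over 32 arrays became 23 at an FDR of 10%, 11 with position as a covariate, 3 with all probes, with the median of all probes or without C66, and 0 with any chip block. On chip 3 the 1 became 13 at an FDR of 10%, 3 with log2, and 0 with all probes, the median of all probes, normexp or neqc, and ranged from 0 to 1 when 1 array was left out. The Syn1 gap on chip 3 ranged from -0.49 to -0.29 when 1 array was left out, and on the other chips it was -0.093 (permutation p = 0.0953) without C66.

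Signs turned for single probes that were not called, and for Cplx1, as follows. With the median of all probes, the 32-array differences were -0.011 for Cplx1, -0.068 for Nsf, -0.099 for Stx1a, -0.11 for Syn1 ILMN_2762083 and -0.074 for Vamp2, and the chip 3 differences were -0.068 for Cplx1, -0.050 for Cplx2 and -0.067 for Syn1 ILMN_2762083. With the median of the tested probes they were -0.028 for Stx1a, -0.037 for Syn1 ILMN_2762083 and -0.0028 for Vamp2 over 32 arrays. With chip as a fixed block they were 0.061 for Cplx2, -0.023 for Nsf and -0.017 for Stx1a, and with position added -0.10 for Nsf and -0.11 for Syn2. Cplx2 turned to 0.0064 with array weights, 0.0026 with chip as a random block and, on chip 3, -0.0052 with neqc. When 1 array of chip 3 was left out, Cplx2 ranged from -0.20 (without A46) to 0.18, and Stx1a from -0.045 to 0.018 (without A47). The causes were not tested. Of the other single-probe values, 257 kept their sign and side of the threshold, 9 of Cplx1 over 32 arrays kept the sign and missed 1%, and 3 of Syn1 ILMN_1235133 newly passed it. Probes not above background, such as that of Snap25, give no level.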
